A study of Pimephales promelas with 15 samples.

Results

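The 40 transcript IDs described here are those whose level in whole fathead minnow larvae (Pimephales promelas) was ordered in steps with the concentration of 17α-ethinylestradiol (EE2). They were selected from the 26150 IDs of the deposited count table on 3 conditions. The mean over the 15 libraries had to reach 1 CPM (counts scaled by the library's column total), every 100 ng/L library had to lie above every solvent library, and the 20 ng/L mean had to lie strictly between the other means. IDs on the scaffold prefixes scaf140 and scaf36 were set aside, which left 19103 IDs with a mean of at least 1 CPM. A ranking by log2((mean at 100 ng/L + 0.5)/(mean in solvent + 0.5)) was to stop at 100 IDs, and that limit was not reached. All the values of the 3 groups were therefore used to choose the 40 IDs, and the differences between groups given for them are a description of what was chosen.

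Each library was made from poly(A) RNA of pooled whole larvae at 4 days post-hatch, with 5 libraries per group. The groups were solvent (0.01% DMSO) and EE2 at nominal 20 or 100 ng/L. Dishes were renewed at intervals, and exposure began in embryos under 6 hours post-fertilization and ended 96 hours post-hatch. Strain and sex are not given in the labels, and the titles of the EE2 libraries name no DMSO level. Whole pooled bodies mix every tissue, so more cells of a type and more RNA per cell cannot be told apart in any value below. Whether a group's 5 libraries are separate cultures is not stated in the labels, and the p-values cover only their spread, which may be technical.

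EE2 is a synthetic estrogen used in oral contraceptives and it reaches rivers in treated sewage. Estrogens bind nuclear receptors that attach to response elements in DNA and change the transcription of nearby genes. In egg-laying fish the liver answers estrogen by making vitellogenin, the egg-yolk precursor, and egg-coat proteins, also in males and juveniles, and the brain form of aromatase in radial glia is another known target. The IDs of this count table are a scaffold prefix and a number, and 0 of them matched the 64593 genes of the RefSeq table for assembly fPimPro1.hap1.1. Likewise 0 of the 32 symbols in 4 lists (estrogen receptors and targets, egg yolk and egg coat, tissue markers) matched an ID. The 40 IDs are therefore given without gene names, sequences or functions, the tissue could not be checked against its markers, and, with no transcript lengths, the order of CPM between IDs is not an order of transcript abundance.

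Total counts ran from 32674182 to 73989987 per library. The 40 IDs together took 0.112% ± 0.00202 of all solvent counts, 0.150% ± 0.0226 of those at 20 ng/L and 0.279% ± 0.0539 of those at 100 ng/L (SD, n = 5 libraries each). These sums lean on IDs with high counts. The mean of scaf62.127 alone was 2.74 CPM in solvent, 132 CPM at 20 ng/L and 751 CPM at 100 ng/L, while the median log2 fold of the ranking was 0.63. Solvent replicate 1 stood apart from its group. It was the highest solvent library for 40.2% of the 19103 IDs and for 9 of the 40. By the same measure, 20 ng/L replicate 4 was the highest of its group for 42.0% of the 19103 IDs and for 5 of the 40.

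**Figure D1:**
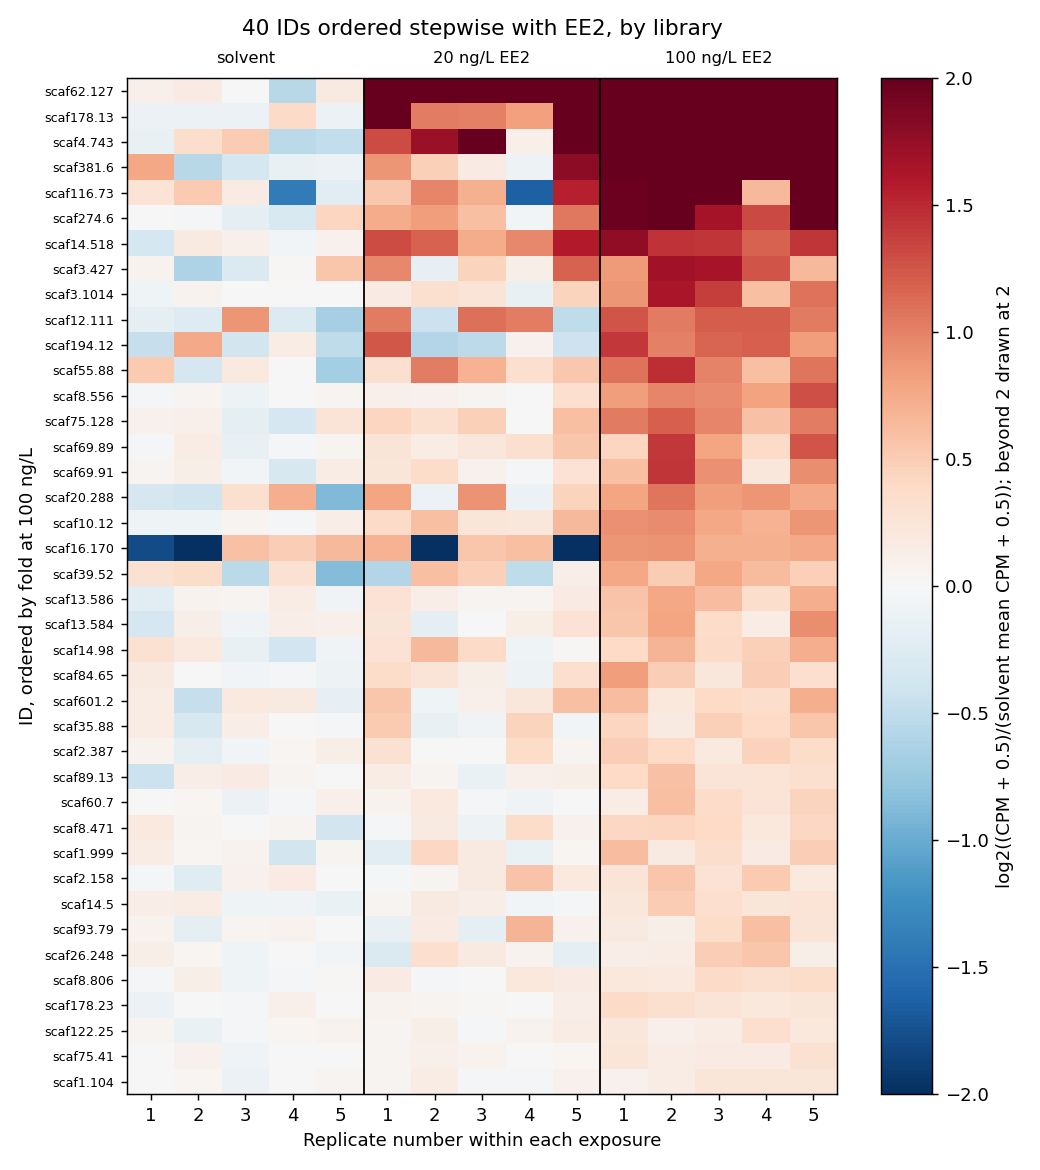
Each row is 1 of the 40 IDs in the order of the ranking and each column is 1 of the 15 libraries, grouped by exposure from solvent to 100 ng/L EE2. Colour is log2((CPM + 0.5)/(solvent mean CPM + 0.5)), with values beyond 2 in either direction drawn at 2. All 40 rows are redder at 100 ng/L than in solvent. The top 4 reach the end of the scale in every 100 ng/L library, and scaf116.73 and scaf274.6 reach it in at least 1.

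The 40 IDs differed widely in the size of the difference. The mean at 100 ng/L was at least 10 times the solvent mean for 4 IDs, 2 to under 10 times for 9, 1.5 to under 2 times for 10, and under 1.5 times for 17. The median of the ranking's log2 fold was 0.63, with a range of 0.20 to 7.85. The gap between the groups was narrow for most: the lowest 100 ng/L library was under 1.1 times the highest solvent library for 27 of the 40, the median ratio was 1.06 and the highest was 104. The weakest member by gap, scaf26.248, had 29.4 CPM in its lowest 100 ng/L library against 29.2 CPM in its highest solvent library. Just outside, scaf84.46 had 5.89 CPM against 5.90 CPM. By level, the lowest member was scaf13.584 with a mean of 1.72 CPM over the 15 libraries, and the nearest ID below the minimum was scaf128.13 with 0.510 CPM.

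The 4 IDs at the head of the ranking were scaf62.127, scaf178.13, scaf4.743 and scaf381.6, and in each the lowest 100 ng/L library was 7.02 to 104 times the highest solvent library. scaf62.127 had 2.98, 3.14, 2.75, 1.70 and 3.16 CPM in solvent, 147, 109.6, 78.6, 15.1 and 309 CPM at 20 ng/L, and 795, 1207, 791, 329 and 631 CPM at 100 ng/L. No library at 20 ng/L overlapped either of the other groups. The highest library had 1.86 times the lowest in solvent, 20.4 times at 20 ng/L and 3.67 times at 100 ng/L, so the spread was widest at 20 ng/L. The means were 2.74 ± 0.607 CPM in solvent, 132 ± 110.3 CPM at 20 ng/L and 751 ± 318 CPM at 100 ng/L (SD, n = 5 each). The fitted log2 fold change of scaf62.127 was 8.14 (SE 0.74) for 100 ng/L over solvent, 5.64 (SE 0.66) for 20 ng/L over solvent and 2.501 (SE 0.56) for 100 over 20 ng/L. Fitted values here are from edgeR after TMM scaling, which corrects library sizes for differences in composition, with a standard error from the quasi-likelihood F statistic.

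scaf178.13 had 0, 0, 0, 0.205 and 0 CPM in solvent, 1.78, 0.598, 0.590, 0.460 and 3.76 CPM at 20 ng/L, and 13.1, 13.8, 8.80, 10.3 and 11.2 CPM at 100 ng/L. The only solvent library above 0 was replicate 4, with 11 counts, and all 15 libraries kept the 3 groups apart. The fitted log2 fold change of scaf178.13 was 7.94 (SE 0.89) for 100 ng/L over solvent, 4.97 (SE 0.88) for 20 ng/L over solvent and 2.97 (SE 0.62) for 100 over 20 ng/L. A fitted value against a group mostly at 0 depends on the prior count. By mean CPM over all 5 libraries of a group, 20 ng/L was 35.0 times and 100 ng/L 279 times solvent, and the solvent mean rests on those 11 counts.

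scaf4.743 had 0.253, 0.566, 0.682, 0.0747 and 0.0923 CPM in solvent, 1.56, 2.25, 3.62, 0.392 and 3.82 CPM at 20 ng/L, and 9.18, 18.5, 11.4, 5.94 and 11.7 CPM at 100 ng/L. The 20 ng/L libraries were all below every 100 ng/L library, and 4 of them were above every solvent library. Replicate 4 at 20 ng/L, the exception, lay within the solvent range. Its fitted log2 fold changes were 5.13 (SE 0.68) for 100 ng/L over solvent, 2.84 (SE 0.64) for 20 ng/L over solvent and 2.29 (SE 0.57) for 100 over 20 ng/L. scaf381.6 had 2.42, 0.669, 0.843, 1.05 and 1.07 CPM in solvent, 2.67, 1.89, 1.42, 1.09 and 5.42 CPM at 20 ng/L, and 24.3, 27.2, 18.2, 17.0 and 27.8 CPM at 100 ng/L. Here 2 of the 20 ng/L libraries exceeded the highest solvent library, which was solvent replicate 1, while the 100 ng/L libraries lay far above both groups. Its 20 ng/L mean was 2.07 times and its 100 ng/L mean 18.9 times the solvent mean. The fitted log2 fold change of scaf381.6 was 4.32 (SE 0.45) for 100 ng/L over solvent, 1.13 (SE 0.42) for 20 ng/L over solvent and 3.19 (SE 0.42) for 100 over 20 ng/L.

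**Figure D2:**
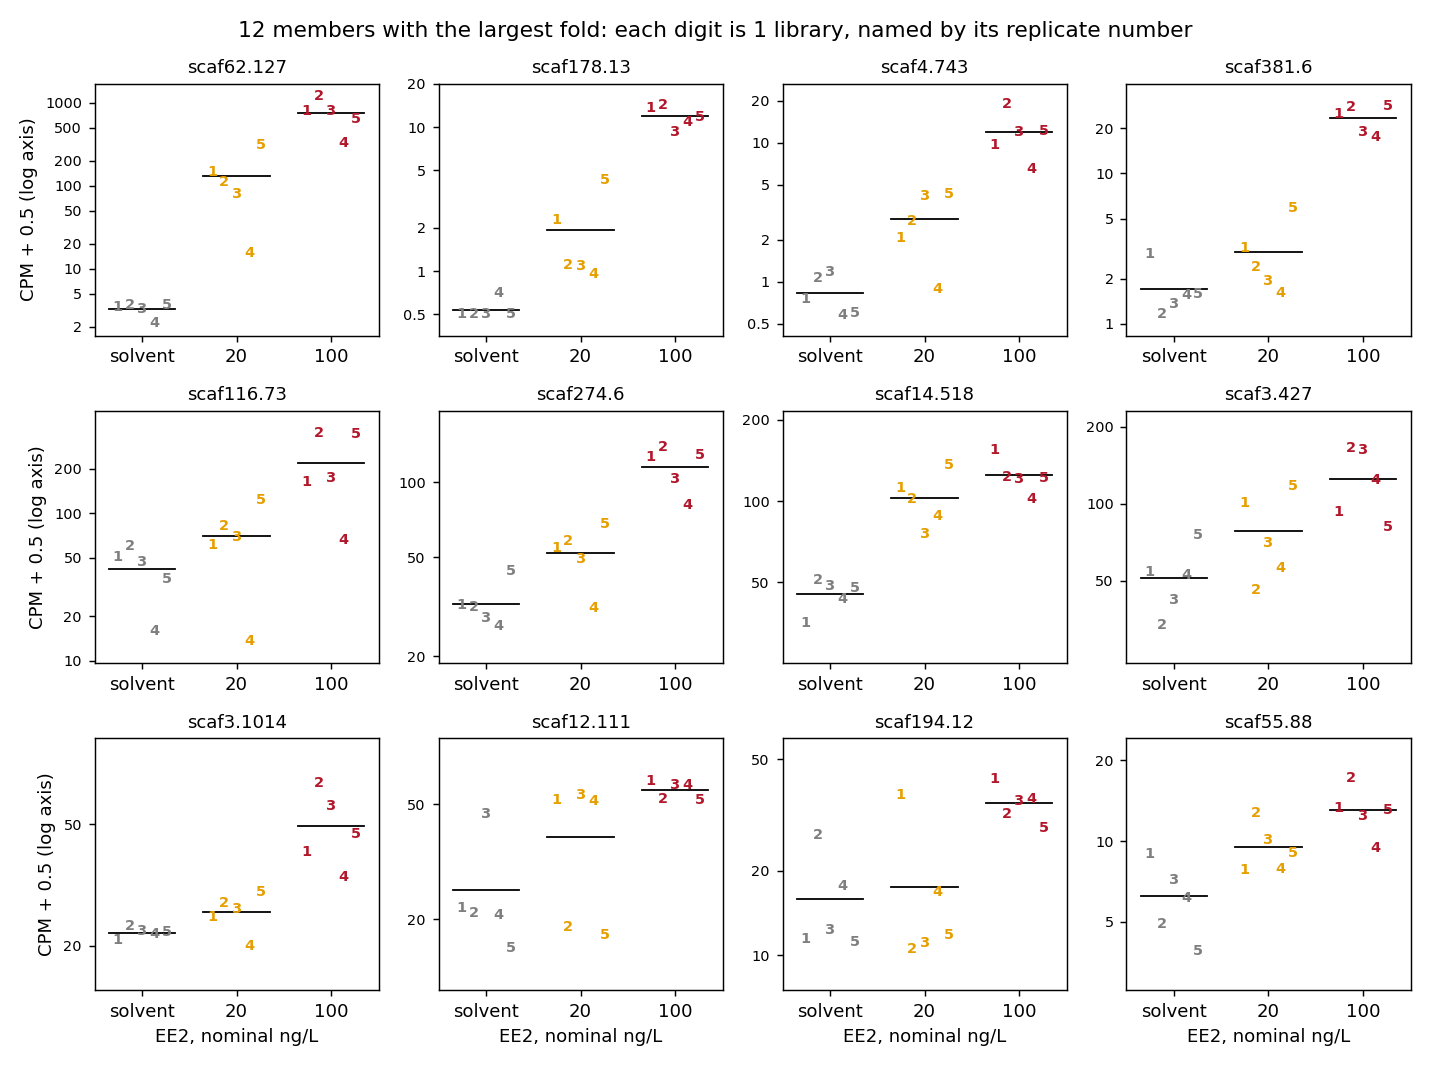
Levels on a log axis in each library for the 12 IDs with the highest ranking, 1 panel per ID, with solvent, 20 ng/L and 100 ng/L from left to right. The axis is CPM + 0.5, each digit is 1 library named by its replicate number, and lines are group means. In CPM, for scaf62.127 the 100 ng/L points sit between 329 and 1207 CPM and the solvent points between 1.70 and 3.16 CPM.

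The next 5 IDs had 100 ng/L means between 2.26 and 5.32 times the solvent mean, and they did not share 1 pattern at 20 ng/L. scaf116.73 had 50.2, 59.8, 46.4, 15.4 and 35.3 CPM in solvent, 60.2, 82.0, 68.3, 13.002 and 123 CPM at 20 ng/L, and 162, 353, 174, 65.1 and 347 CPM at 100 ng/L. Its libraries spread widely in every group, and the lowest 100 ng/L library was close to the highest solvent library. On the log2 scale scaf116.73 had fitted fold changes of 2.46 (SE 0.56) for 100 ng/L over solvent, 0.79 (SE 0.53) for 20 ng/L over solvent and 1.67 (SE 0.54) for 100 over 20 ng/L. With the replicate number as a block, the value for 100 ng/L over solvent was 2.31 (SE 0.25) and the ID was called. scaf274.6 had 31.7, 31.0, 27.996, 25.9 and 43.5 CPM in solvent, 54.0, 57.7, 48.8, 30.9 and 67.3 CPM at 20 ng/L, and 126, 138, 103, 80.5 and 129 CPM at 100 ng/L. All 5 libraries at 20 ng/L were below every 100 ng/L library and 4 were above every solvent library. For scaf274.6 the fit gave log2 fold changes of 1.88 (SE 0.23) for 100 ng/L over solvent, 0.72 (SE 0.22) for 20 ng/L over solvent and 1.16 (SE 0.22) for 100 over 20 ng/L.

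scaf14.518 had 34.7, 50.3, 47.8, 42.9 and 47.3 CPM in solvent, 111, 101, 74.96, 87.4 and 135 CPM at 20 ng/L, and 154, 123, 121, 102 and 121 CPM at 100 ng/L. At 20 ng/L all 5 libraries were above every solvent library, 3 were below every 100 ng/L library and 2 were within the 100 ng/L range. Its fitted log2 fold changes were 1.51 (SE 0.17) for 100 ng/L over solvent, 1.21 (SE 0.17) for 20 ng/L over solvent and 0.29 (SE 0.17) for 100 over 20 ng/L. scaf3.1014 had 20.3, 22.7, 21.8, 21.4 and 21.6 CPM in solvent, 24.3, 27.1, 25.9, 19.5 and 29.5 CPM at 20 ng/L, and 40.1, 67.8, 56.9, 33.1 and 46.1 CPM at 100 ng/L. The solvent libraries were tight, with a ratio of 1.12 between highest and lowest, and the 100 ng/L libraries spread over a ratio of 2.05. On the log2 scale scaf3.1014 had fitted fold changes of 1.22 (SE 0.18) for 100 ng/L over solvent, 0.25 (SE 0.18) for 20 ng/L over solvent and 0.97 (SE 0.18) for 100 over 20 ng/L. scaf3.427 had 53.6, 33.03, 41.7, 52.2 and 74.99 CPM in solvent, 99.9, 45.7, 70.0, 55.6 and 117 CPM at 20 ng/L, and 92.8, 164, 162, 123 and 80.5 CPM at 100 ng/L. In scaf3.427 the 20 ng/L libraries overlapped both other groups. For scaf3.427 the fit gave log2 fold changes of 1.32 (SE 0.29) for 100 ng/L over solvent, 0.63 (SE 0.29) for 20 ng/L over solvent and 0.70 (SE 0.29) for 100 over 20 ng/L.

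In several IDs some solvent or 20 ng/L libraries came near or within the 100 ng/L range while others lay far below it. scaf12.111 had 21.4, 20.6, 45.9, 20.3 and 15.4 CPM in solvent, 51.2, 18.3, 53.6, 50.9 and 17.2 CPM at 20 ng/L, and 59.99, 51.6, 57.8, 58.0 and 51.2 CPM at 100 ng/L. Solvent replicate 3 was near the 100 ng/L libraries, while the other solvent libraries were far below. Its fitted log2 fold changes were 1.21 (SE 0.33) for 100 ng/L over solvent, 0.62 (SE 0.33) for 20 ng/L over solvent and 0.58 (SE 0.33) for 100 over 20 ng/L. scaf194.12 had 10.9, 26.2, 11.8, 17.1 and 10.6 CPM in solvent, 36.8, 10.001, 10.5, 16.3 and 11.3 CPM at 20 ng/L, and 41.8, 31.4, 35.0, 35.6 and 27.8 CPM at 100 ng/L. Replicate 1 at 20 ng/L lay within the 100 ng/L range and the other 20 ng/L libraries within or below the solvent range. On the log2 scale scaf194.12 had fitted fold changes of 1.20 (SE 0.34) for 100 ng/L over solvent, 0.14 (SE 0.34) for 20 ng/L over solvent and 1.05 (SE 0.34) for 100 over 20 ng/L.

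scaf16.170 had 4.69, 3.71, 26.4, 24.6 and 27.6 CPM in solvent, 28.4, 3.47, 25.8, 26.6 and 3.92 CPM at 20 ng/L, and 32.4, 32.8, 28.7, 28.9 and 29.9 CPM at 100 ng/L. Solvent replicates 1 and 2 and 20 ng/L replicates 2 and 5 were low, and the other libraries of those groups were just under the 100 ng/L libraries. The 20 ng/L and solvent means were therefore nearly equal: 17.6 ± 12.8 CPM at 20 ng/L and 17.4 ± 12.1 CPM in solvent. For scaf16.170 the fit gave log2 fold changes of 0.83 (SE 0.61) for 100 ng/L over solvent, -0.01 (SE 0.61) for 20 ng/L over solvent and 0.84 (SE 0.61) for 100 over 20 ng/L. Of the 40 fitted values for 20 ng/L over solvent, that of scaf16.170 was the only negative one. Further IDs of this kind, picked after their values were seen, were scaf20.288, with 8.36 to 26.5 CPM in solvent and 27.2 to 33.7 CPM at 100 ng/L, and scaf39.52, with 6.44 to 15.9 CPM in solvent and 17.2 to 21.2 CPM at 100 ng/L.

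scaf55.88 had 8.49, 4.40, 6.66, 5.66 and 3.40 CPM in solvent, 7.30, 12.2, 9.55, 7.34 and 8.53 CPM at 20 ng/L, and 12.7, 16.7, 11.9, 8.90 and 12.6 CPM at 100 ng/L. Solvent replicate 1 was the highest of its group for scaf55.88 and close to the lowest 100 ng/L library. Its fitted log2 fold changes were 1.19 (SE 0.23) for 100 ng/L over solvent, 0.69 (SE 0.23) for 20 ng/L over solvent and 0.50 (SE 0.23) for 100 over 20 ng/L. Without that library the value for 100 ng/L over solvent was 1.35 (SE 0.23).

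Of the 28 IDs after the first 12, scaf8.556 was called in 2 of the 3 comparisons, and scaf10.12 was the only one with all 3 groups apart. scaf8.556 had 60.9, 64.8, 58.3, 63.0 and 64.8 CPM in solvent, 66.6, 66.0, 64.9, 62.0 and 79.0 CPM at 20 ng/L, and 112, 123, 121, 109.9 and 153 CPM at 100 ng/L. The 20 ng/L libraries lay close to solvent, with replicate 5 the highest of the 5, and all were well below the 100 ng/L libraries. On the log2 scale scaf8.556 had fitted fold changes of 1.03 (SE 0.12) for 100 ng/L over solvent, 0.14 (SE 0.12) for 20 ng/L over solvent and 0.89 (SE 0.12) for 100 over 20 ng/L. scaf10.12 had 57.8, 57.3, 63.5, 59.2 and 67.3 CPM in solvent, 79.5, 92.6, 72.7, 71.7 and 96.0 CPM at 20 ng/L, and 115, 118, 105, 98.7 and 113 CPM at 100 ng/L. Every library of scaf10.12 fell in the order solvent, 20 ng/L, 100 ng/L with no overlap, on a far smaller fold than in scaf62.127 and scaf178.13. For scaf10.12 the fit gave log2 fold changes of 0.88 (SE 0.12) for 100 ng/L over solvent, 0.46 (SE 0.12) for 20 ng/L over solvent and 0.43 (SE 0.12) for 100 over 20 ng/L. The ID scaf10.12 was picked after its values were seen.

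scaf178.23 had 227, 249, 244, 266 and 248 CPM in solvent, 260.2, 258, 251, 246 and 269.6 CPM at 20 ng/L, and 322, 309, 295, 287 and 292 CPM at 100 ng/L. This ID shares its prefix with scaf178.13, and its 20 ng/L libraries overlapped the solvent range while its 100 ng/L libraries stood above both groups by a narrow gap. Its fitted log2 fold changes were 0.32 (SE 0.08) for 100 ng/L over solvent, 0.08 (SE 0.08) for 20 ng/L over solvent and 0.25 (SE 0.08) for 100 over 20 ng/L. The 17 IDs with a ratio of means under 1.5 had ratios from 1.03 to 1.23 at 20 ng/L over solvent and from 1.15 to 1.48 at 100 ng/L over solvent. Their lowest 100 ng/L library was at most 1.08 times the highest solvent library. In these 17 the order of the libraries, not the size of the difference, is what the rule selected.

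Across the 40, 20 ng/L libraries overlapped their neighbours in most IDs. All 5 libraries at 20 ng/L were above every solvent library for 5 IDs (scaf62.127, scaf178.13, scaf14.518, scaf69.89 and scaf10.12), where 0.089% of all 19103 IDs had that order. All 5 were below every 100 ng/L library for 14 IDs, where 1.01% of all IDs had every 100 ng/L library above every 20 ng/L library. Both held for 3 IDs (scaf62.127, scaf178.13 and scaf10.12) and neither for 24. No share over all IDs was taken for both together, so nothing is read from these counts. By the rule, every 100 ng/L library was above every solvent library in all 40, as in 0.267% of the 19103 IDs. Since the rule also placed the 20 ng/L mean between the others, nothing is read from these shares. Of the 51 IDs separated in this way, 10 had a 20 ng/L mean at or below the solvent mean and 1 had one at or above the 100 ng/L mean. In the opposite direction, every 100 ng/L library was below every solvent library for 124 IDs.

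In edgeR's quasi-likelihood test over the 21976 IDs that passed the filter on low counts, which all 40 passed, 11 of the 40 had a Benjamini-Hochberg adjusted p below 0.05 for 100 ng/L over solvent. They were scaf62.127, scaf178.13, scaf4.743, scaf381.6, scaf274.6, scaf14.518, scaf3.1014, scaf8.556, scaf75.128, scaf10.12 and scaf13.586. Over all tested IDs 0.0956% were called in that direction, and the same libraries chose the 40, so nothing is read from the difference. For 20 ng/L over solvent 2 of the 40 were called (scaf62.127 and scaf14.518), against 0.0501% of all tested IDs. For 100 over 20 ng/L also 2 were called (scaf381.6 and scaf8.556), against 0.0273%. With the replicate number as a block, 14 of the 40 were called for 100 ng/L over solvent, with scaf116.73, scaf69.89 and scaf69.91 gained, and 2 for 20 ng/L over solvent. Over all 21976 tested IDs the block fit called 24 higher for 100 ng/L and 11 higher for 20 ng/L over solvent. The median fitted log2 fold change of the 40 was 0.75 for 100 ng/L over solvent, 0.21 for 20 ng/L over solvent and 0.44 for 100 over 20 ng/L, with medians over all tested IDs of -0.01, -0.01 and -0.00.

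Leaving out solvent replicate 1 raised the number of the 40 called for 100 ng/L over solvent to 23. Over all IDs it raised the share called in that direction to 2.04% of 22194 IDs. With all libraries numbered 1 left out, solvent replicate 1 among them, 9 of the 40 were called. Over all IDs, 24 of 22225 were then called higher and 16 lower. This last fit was chosen after seeing the data. Some calls depended on single libraries. The call of scaf13.586 was lost without any 1 of 7 libraries (replicates 2, 3 and 5 at 100 ng/L and 2 to 5 in solvent), and that of scaf75.128 without any 1 of 5 (replicates 2, 3 and 5 at 100 ng/L and 3 and 4 in solvent). For 100 over 20 ng/L, the calls of both scaf381.6 and scaf8.556 were lost without any 1 of 6 libraries (replicates 2, 3 and 5 at 100 ng/L and 1 to 3 at 20 ng/L), with edgeR adjusted p from 0.0564 to 0.112. Calls were gained too: scaf178.13 was called for 20 ng/L over solvent without 20 ng/L replicate 4, and for 100 over 20 ng/L without 20 ng/L replicate 5.

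How far each ID had moved at 20 ng/L was expressed as the share of the step, the difference between the 20 ng/L and solvent means divided by the difference between the 100 ng/L and solvent means. A level in proportion to concentration would give 20%. The median share was 22.3%, the quartiles were 14.97% and 37.4%, and the range was 1.92% to 72.4%. The share was under 20% for 19 IDs, 20% to 50% for 18 and at least 50% for 3. These 3 were scaf14.518 with 72.4%, scaf601.2 with 61.0% and scaf2.158 with 52.8%. The lowest were scaf16.170 with 1.92%, scaf381.6 with 5.94% and scaf8.556 with 8.74%. On the CPM scale the 4 IDs with the highest folds had shares from 5.94% to 18.1%, below the share that proportion gives. That order rested on single libraries for 2 of them: without 20 ng/L replicate 4 the share was 21.2% for scaf62.127 and 22.5% for scaf4.743. Without 20 ng/L replicate 5 the shares of scaf62.127, scaf178.13 and scaf381.6 were 11.3%, 7.15% and 2.57%, and that of scaf8.556 was 4.14%. The share of scaf16.170 ran from -18.6% to 28.8% with 1 library at 20 ng/L left out, and that of scaf2.158 was 24.1% without 20 ng/L replicate 4. On the log2 scale the median share was 34.3%, and on the CPM scale without solvent replicate 1 it was 24.7%. The low shares of the first 4 IDs were particular to the CPM scale. With log2 of the group means + 0.5 CPM, they were 68.1% for scaf62.127, 41.2% for scaf178.13, 46.0% for scaf4.743 and 21.5% for scaf381.6. The rule bounds every share over all 15 libraries between 0 and 100%, and no test was made.

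scaf601.2 had 1.71, 0.953, 1.78, 1.76 and 1.27 CPM in solvent, 2.43, 1.39, 1.65, 1.84 and 2.54 CPM at 20 ng/L, and 2.57, 1.82, 2.13, 2.05 and 2.79 CPM at 100 ng/L. scaf2.158 had 10.6, 9.14, 11.6, 12.2 and 10.8 CPM in solvent, 10.5, 11.2, 12.3, 16.4 and 12.6 CPM at 20 ng/L, and 13.04, 16.20, 13.4, 15.8 and 12.5 CPM at 100 ng/L. In both IDs the 20 ng/L libraries ran across the solvent and 100 ng/L ranges, so the high shares rest on overlapping libraries. Set beside the 40, the 5 scaf140 IDs that met every other condition had shares from 3.56% to 8.85%, and the 3 scaf36 IDs with every 100 ng/L library above every solvent library had shares from 97.0% to 133%, of which 1 met every other condition.

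**Figure D3:**
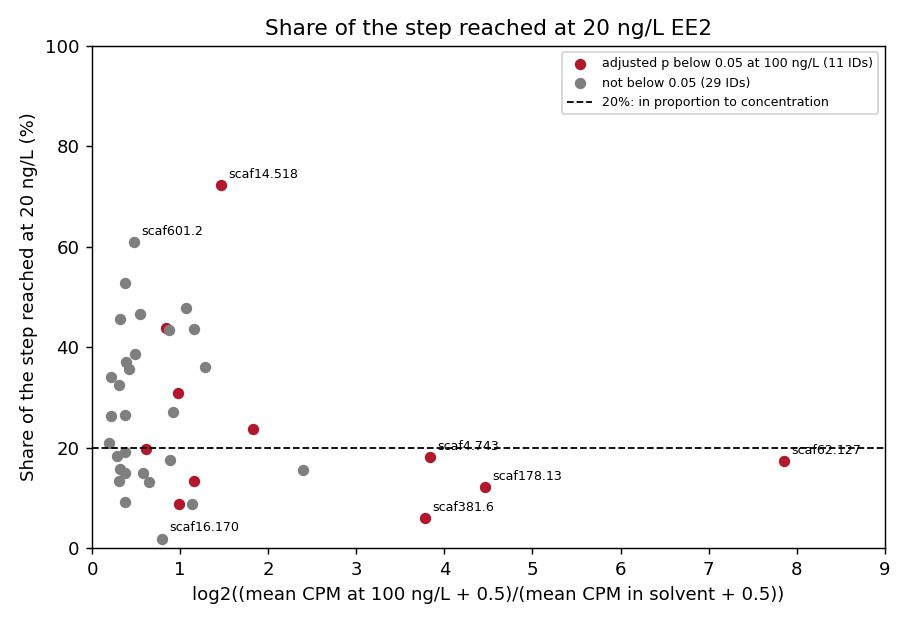
The share of the step reached at 20 ng/L (percent, vertical axis) against log2((mean CPM at 100 ng/L + 0.5)/(mean CPM in solvent + 0.5)) for the 40 IDs, red for the 11 called at 100 ng/L over solvent. Shares are on the CPM scale. The dashed line marks 20%, and the 4 IDs at the right have shares from 5.94% to 18.1%, 2 of which pass 20% without 20 ng/L replicate 4.

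Within each EE2 group the same libraries tended to be the extreme ones for the IDs with the highest folds. Among the first 12 IDs, 20 ng/L replicate 5 was the highest of its group in 9 and 20 ng/L replicate 4 the lowest in 7. At 100 ng/L, replicate 2 was the highest in 8 and replicate 4 the lowest in 8. The solvent extremes were more evenly spread: replicate 2 was most often the highest, in 4, and replicate 4 most often the lowest, in 4. Over all 40, 20 ng/L replicate 5 was the highest in 17, against 7.19% of the 19103 IDs, and 20 ng/L replicate 4 was the lowest in 18, against 20.7%. Replicate 2 at 100 ng/L was the highest in 20 of the 40, against 21.9% of all IDs, and replicate 4 at 100 ng/L the lowest in 18, against 22.2%. The median share of the step, taken library by library at 20 ng/L, was 24.9%, 20.0%, 17.6%, 4.94% and 30.9% for replicates 1 to 5.

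The summed CPM of the 5 scaf140 IDs, none of which entered the choice of the 40, ran from 2.48 to 6.51 CPM in solvent. At 20 ng/L the sums were 816, 298, 253, 139 and 1801 CPM for replicates 1 to 5, and at 100 ng/L they were 12877, 13167, 10904, 7128 and 13038 CPM. In both EE2 groups replicate 4 had the lowest sum, and the highest was in replicate 5 at 20 ng/L and replicate 2 at 100 ng/L. What sets these libraries apart was not tested.

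By position, the 40 IDs lay on 29 prefixes of the 407 that held an ID with a mean of at least 1 CPM. Of these, 20 prefixes held 1 of the 40, 7 held 2, and scaf14 and scaf8 held 3. The closest numbers on 1 prefix were scaf13.584 with scaf13.586, scaf69.89 with scaf69.91 (both 2 apart) and scaf178.13 with scaf178.23 (10 apart). Between the first pair, scaf13.585 had means of 21.1 CPM in solvent, 20.1 CPM at 20 ng/L and 25.3 CPM at 100 ng/L and was not chosen. IDs with near numbers may be neighbours or parts of 1 gene and could share reads, and this was not tested.

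The 68 IDs numbered 1 below or 1 above a member, and not members themselves, were read by the rule and did not meet it. Of these, 60 passed the filter on low counts. For 100 ng/L over solvent 29 of the 60 were higher, their median fitted log2 fold change was -0.03 and their range was -1.04 to 0.47. None had every 100 ng/L library above every solvent library. Not meeting the rule nearly fixed that, so nothing is read from it. At the adjusted threshold edgeR called 0 of the 60 and DESeq2 also 0. An unadjusted edgeR p below 0.05 was found for 5 of them, against 7.93% of all tested IDs.

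To read the order in libraries that had no part in the choice, the rule was applied again to the 12 libraries left after setting aside 1 replicate number, and the 3 libraries set aside were then read. The 100 ng/L library set aside was above its solvent library for 26, 57, 49, 70 and 76 of the 100, 85, 58, 90 and 100 IDs chosen without numbers 1 to 5. As shares these were 26.0%, 67.1%, 84.5%, 77.8% and 76.0%, where the same order over all eligible IDs held for 36.2%, 42.7%, 48.2%, 47.9% and 50.5%. The whole order, with 20 ng/L between the others, held for 17.0%, 42.4%, 53.4%, 35.6% and 30.0% of those chosen and for 7.04%, 12.8%, 25.9%, 23.9% and 19.2% of all.

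With numbers 2 to 5 set aside, the 100 ng/L library was above its solvent library in 252 of 333 cases (75.7%), above the share over all IDs each time. For the members among the chosen IDs, the rule over all 15 libraries had already fixed that order. Nothing is therefore read from the difference. With number 1 set aside, which holds solvent replicate 1, the share was below that over all IDs. Over the 5 numbers the count was 278 of 433 (64.2%). Read over all IDs meeting the rule instead of the first 100, it was 359 of 953 (37.7%), and 599 of those 953 were chosen without number 1. These are counts of IDs read in 3 libraries each, with no test, and the 5 choices share most of their libraries. An ID chosen for several numbers was counted each time. Among the IDs chosen without numbers 1 to 5, 20, 38, 38, 39 and 37 were also members of the set described here. For a member, the rule over all 15 libraries had already placed each 100 ng/L library above its solvent library. The counts therefore cannot show whether the members would keep their order in new libraries.

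**Figure D4:**
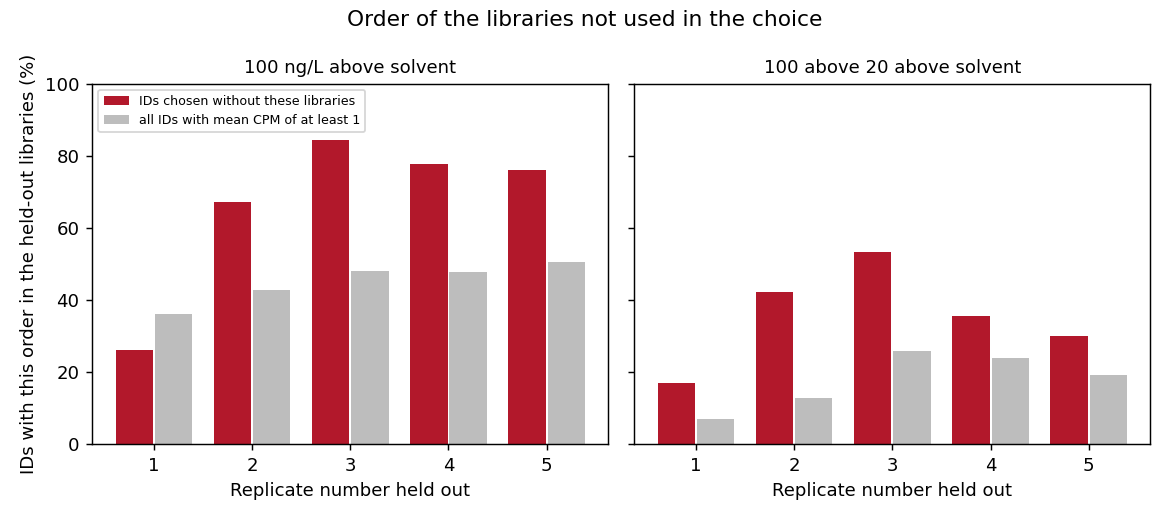
For each replicate number set aside, the percentage of IDs with the 100 ng/L library above the solvent library, and with the full order solvent, 20 ng/L, 100 ng/L, among IDs chosen from the other 12 libraries and among all eligible IDs. Chosen IDs are above all IDs for numbers 2 to 5 on both measures, and below them for number 1 on the first (26.0% against 36.2%). Of the chosen IDs, 20, 38, 38, 39 and 37 are members, for which the rule had already fixed the first order. Nothing is therefore read from the difference.

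The number of IDs meeting the rule rested on solvent replicate 1. Without it 571 IDs met the rule, among them 38 of the 40, and 21 of the 40 were among the 100 with the highest fold. Of the 533 that were gained, 528 had solvent replicate 1 at or above their lowest 100 ng/L library, which follows nearly from the rule. That library was above the 100 ng/L mean in 509 of them. Their differences were small, with a median log2 fold of 0.36 by the rule's formula, and 6 of the 533 reached 1. With any solvent or 100 ng/L library left out, the condition that these groups be apart is easier to meet. Leaving out any 1 of the other 14 libraries gave between 37 and 97 IDs. Of these libraries, 4 moved the number by over 1.5 times. They were solvent replicate 5 (97), 100 ng/L replicate 2 (67), solvent replicate 2 (65) and 100 ng/L replicate 4 (61).

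**Figure D5:**
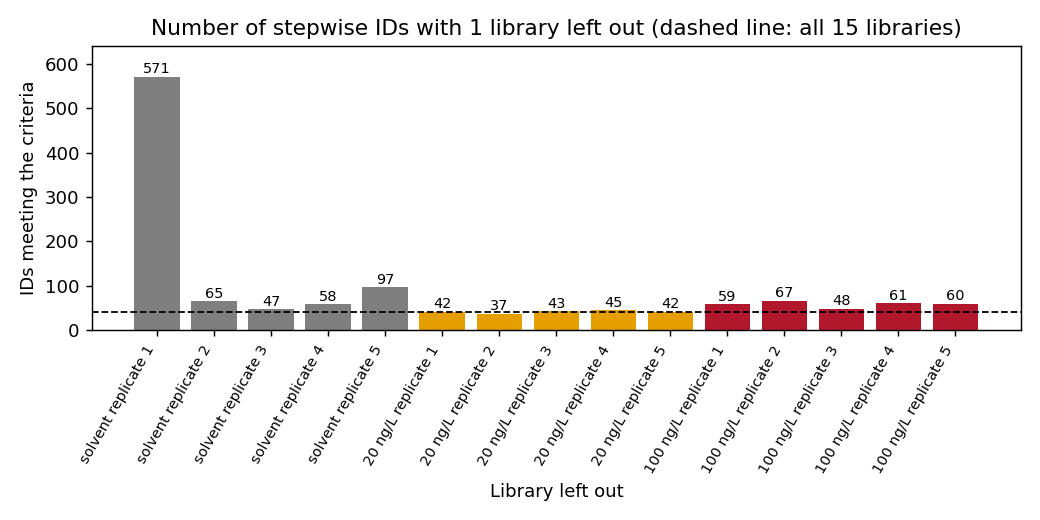
The number of IDs meeting the rule when 1 library is left out (bars, 1 per library), with the 40 found in all 15 libraries as a dashed line and bar colour giving the group. Without solvent replicate 1 the number is 571, and without each of the others it is between 37 and 97.

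The authors' deposited table of the 100 ng/L comparison holds 34 of the 40 IDs. In the authors' deposited table all 34 had a positive log2 fold change, with a median of 0.83, and 23 were called higher at an adjusted p below 0.05, where 3.13% of its 15569 IDs were. In the authors' deposited table of the 20 ng/L comparison, 32 of the 34 were positive, with a median of 0.21, and 2 were called, against 0.0707% of its IDs. That table called 488 IDs higher and 655 lower at 100 ng/L. Here the fit on all 15 libraries called 21 higher and 2 lower, and the fit without solvent replicate 1 called 453 higher and 538 lower. With all libraries numbered 1 left out, 24 were called higher and 16 lower. Which libraries the authors fitted is not known from the sources used here, and their values are no independent evidence, since they were made from this series.

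Libraries with the same replicate number in different groups deviated together across the count table. The mean correlation of their deviations was 0.30 between each EE2 group and solvent, and 0.22 between the EE2 groups. In an edgeR fit with group and replicate number, 5 of the 40 (scaf116.73, scaf274.6, scaf69.91, scaf75.128 and scaf8.556) had an adjusted p below 0.05 for replicate number, which is 12.5% of them against 12.9% of all tested IDs. In that fit the share among the 40 was thus near that of all IDs. With library size only, 3 of the 40 were called, where 3498 of 21976 IDs were. The libraries of the 40 varied less than those of all IDs in solvent, with a median coefficient of variation of 14.3% against 22.0%. At 20 ng/L they varied more, with 18.1% against 15.2%, and at 100 ng/L less, with 14.4% against 16.4%. The rule favours IDs with little spread in solvent and at 100 ng/L, and it places no such limit on single libraries at 20 ng/L.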

How the data were processed

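A single count table was deposited, with whole numbers for 15 libraries, 5 per group. The submitters' processing notes name Trimmomatic 0.38, StringTie 1.3.4d and edgeR 3.26.5. The aligner, build and annotation were not given in the sources used here. The strand setting of the counting is unknown too, so reads of overlapping or antisense genes cannot be separated. StringTie works from coverage, and its counts may be estimates. The authors' 2 deposited tables of comparisons with solvent, per the file headers, hold a signed fold change and an F score, log2 values and p-values per ID.

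CPM was taken by column total, and the rule in the opening was applied to it in Python 3.11.15 with pandas 2.3.3. The members and lists were chosen with earlier results of these data known. IDs given with all their values were the first 12 by the ranking, the 3 with the highest mean at 100 ng/L, those called in the comparisons with 20 ng/L, and the 3 lowest and 3 highest shares of the step; others were chosen after their values were seen. Fits used R 4.3.3 and edgeR 4.0.16 on all 15 libraries: filterByExpr (minimum count 10, minimum total 15), TMM, robust quasi-likelihood with group means, and Benjamini-Hochberg adjusted p below 0.05. The SE is the size of the log2 fold change divided by the square root of F. Total counts of 32674182 to 73989987 set the precision, and the floor of 3 counts covers counting error only.

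Replicate numbers come from the labels. The correlation of same-numbered libraries' deviations ran from 0.23 to 0.39 between 100 ng/L and solvent. Between 20 ng/L and solvent it ran from 0.11 to 0.62. For these comparisons the counts called in a fit with the replicate number as a block are given beside those of the main fit. For single IDs, a fitted value with the block is given only for scaf116.73. Between 100 and 20 ng/L the correlation ran from 0.085 to 0.45. Its lowest value was under the limit of 0.1 set for pairing, so there the block is given only as an alternative. The main fit used group means without pairing. All fitted values, SEs and calls are from it unless another setting is named. Alternatives were other scalings, filters and tools (DESeq2 1.42.0, limma-voom 3.58.1), the block, and each library left out; leaving out single 20 ng/L libraries for the shares of named IDs was added after seeing the data. Gene lists and sequences were not used, since no ID matched a gene name.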

Additional observations from a re-analysis of the deposited data

Results flagged for a closer look

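Of the 120 sets of 5 libraries (40 IDs in 3 groups), 8 had 1 library far from the other 4 by Dixon's criterion, where chance flags about 1 in 20 sets. In solvent replicate 4, scaf62.127 had 1.70 CPM (the other solvent libraries 2.75 to 3.16 CPM), scaf178.13 had 0.205 CPM (the others 0) and scaf1.999 had 1.46 CPM (the others 2.11 to 2.30 CPM). In solvent replicate 1, scaf381.6 had 2.42 CPM, with 0.669 to 1.07 CPM in the others. In solvent replicate 3, scaf12.111 had 45.9 CPM, with 15.4 to 21.4 CPM in the others. At 20 ng/L, scaf194.12 had 36.8 CPM in replicate 1, with 10.001 to 16.3 CPM in the others, and scaf8.556 had 79.0 CPM in replicate 5, with 62.0 to 66.6 CPM in the others. At 100 ng/L, scaf8.471 had 15.6 CPM in replicate 4, with 17.7 to 18.2 CPM in the others. By the rule each of these IDs had every 100 ng/L library above every solvent library.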

How the results depend on the processing

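The number of IDs meeting the rule (40) was 60 with CPM by TMM-scaled library size, of which 36 were among the 40. Leaving out 1 library gave 37 to 571, and leaving out all libraries numbered 1 gave 599. Of the 40, 21 to 40 remained among those chosen with 1 library left out, and 20 with all libraries numbered 1 left out. The count of the 40 called for 100 ng/L over solvent (11) was 20 with DESeq2, 9 to 23 with 1 library left out and 9 with all libraries numbered 1 left out. Over all tested IDs, 21 of 21976 were called higher in the main fit and 33 of 24147 with DESeq2. The number was 18 to 453 with 1 library left out and 24 of 22225 with all libraries numbered 1 left out. For 20 ng/L over solvent (2) the count of the 40 was 4 with DESeq2 and 1 with limma-voom, with the fit of only the groups compared and with the libraries numbered 1 left out (for the fits, an alternative chosen after seeing the data). Over all tested IDs these fits called 14 of 25121, 6 of 21976, 10 of 21938 and 10 of 22225 higher, against 11 of 21976 in the main fit. For 100 over 20 ng/L (2) the count of the 40 was 6 with the replicate block, 7 with DESeq2, 1 with only the groups compared, 0 to 3 with 1 library left out and 0 with the libraries numbered 1 left out. Over all tested IDs these called 11 of 21976, 18 of 25121, 2 of 21555, 0 to 8 and 0 of 22225 higher, against 6 of 21976 in the main fit. The block changed no other count of the 40 by more than 1.5 times. The median share of the step (22.3%) was 34.3% on the log2 scale. The held-out share (64.2%) was 37.7% (359 of 953) when all IDs meeting the rule, not the first 100, were read. The number of the 40 called for replicate number (5) was 3 with library size only. Over all tested IDs that fit called 3498 of 21976, against 2826 of 21976 in the main fit. Of the 525 values of 21 named comparisons under alternatives, 497 kept direction and side of the threshold, 19 lost and 9 gained the call, and 0 turned direction. These do not cover all the fitted values, and some near 0 did turn. Of the 40, 39 had a positive value for 20 ng/L over solvent in the main fit. The number was 40 with library size only, 37 without 20 ng/L replicate 2 and 36 with the libraries numbered 1 left out. The causes were not tested. Depth limits IDs near 1 CPM, such as scaf13.584, and scaf178.13, which had no counts in 4 solvent libraries. Pooled whole larvae, unnamed IDs and nominal concentrations limit every value.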
